A study of Homo sapiens with 18 samples.

Results

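The genes described here are type I interferon-stimulated genes, the antiviral genes that cells switch on when interferon-alpha or interferon-beta binds its receptor. They were chosen as a list of 39 gene symbols looked up in the probe annotation of the array, with the probe set of highest mean kept for each symbol. The table held 38 of the 39 among 18417 genes with a symbol of their own, each through 1 probe set, and STAT2 was not analysed here. The 18 arrays came from human umbilical vein endothelial cells (HUVEC), the cells that line the vein of the umbilical cord, obtained from ATCC and labelled as a normal endothelial cell line. They fell into 6 groups of 3 arrays.

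The control groups were untreated HUVEC and HUVEC cultured with beads carrying IgG but no vesicles. The other 4 groups received extracellular vesicles (EVs), membrane particles shed by cells, that had been captured on beads through either CD63, a tetraspanin of endosomal vesicles, or MHC1, the class I antigen-presenting molecule. The donor cells of the vesicles were Jurkat, a T cell line established from a human leukaemia, and JinB8, derived from Jurkat and deficient in CD47, the receptor for thrombospondin-1. The resulting groups were Jurkat CD63+, Jurkat MHC1+, JinB8 CD63+ and JinB8 MHC1+ EVs, each co-cultured with HUVEC for 3 days, with no time given for the untreated cells. Concentrated media of each donor line were pooled before the vesicles were isolated. In free text 5 of the 6 arrays of the JinB8 groups carry another number after the line's stem, while the sample names in brackets read JinB8 throughout. Sample labels and design text name different RNA extraction kits. The labels carry no replicate numbers, so the numbers used here follow the order of the sample records and only name arrays. Separate cultures are not named in any label, so the p-values below measure the spread between these arrays, which may be technical, and 3 arrays per group limit the precision. RNA was taken from whole cultures, so fewer cells of a kind and less RNA per cell cannot be told apart.

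Type I interferons bind a receptor made of IFNAR1 and IFNAR2, whose attached kinases TYK2 and JAK1 pass the signal on by phosphorylation. The transcription complex ISGF3, which includes IRF9, then binds the interferon-stimulated response element in the promoters of the target genes. The products include sensors of viral RNA, proteins that block translation or degrade RNA, and membrane proteins that hinder viral entry and release, and endothelial cells both respond to interferon and keep a resting level of many of these genes.

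Promoters bear on the list because those of interferon target genes can hold that element. Its core, GAAA followed by any 2 bases and a second GAAA, was searched on both strands of the RefSeq promoter windows of build GRCh38.p14, from 250 bases before to 50 after each annotated start. Windows were given for 31 of the measured genes, and 23 of these held the core (74.2%), against 4.38% of all 27305 genes of the promoter table. Counted by window, the shares were 27 of 41 (65.9%) and 3.57% of 35116. The stretches below are those of genes whose values the results turn on, read on the strand of the gene, with 1 copy of the core, or its reverse complement, in capitals. They lie at chr1:1013375-1013414 (ISG15, plus strand), chr1:27672324-27672363 (IFI6, minus), chr14:94110626-94110665 (IFI27, plus, inside the annotated gene, before an inner start), chr10:89392505-89392544 (IFIT1, plus), chr11:313985-314024 (IFITM1, plus), chr19:17405736-17405775 (BST2, minus), chr12:112938316-112938355 (OAS3, plus), chr21:41431839-41431878 (MX1, plus, inside the gene, before an inner start) and chr15:88638932-88638971 (ISG20, plus, likewise).
ISG15: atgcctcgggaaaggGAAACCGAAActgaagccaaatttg
IFI6: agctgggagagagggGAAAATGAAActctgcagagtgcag
IFI27: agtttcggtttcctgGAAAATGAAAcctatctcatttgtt
IFIT1: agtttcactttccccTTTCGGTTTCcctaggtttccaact
IFITM1: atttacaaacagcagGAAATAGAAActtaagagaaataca
BST2: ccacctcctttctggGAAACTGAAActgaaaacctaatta
OAS3: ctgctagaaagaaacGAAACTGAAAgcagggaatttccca
MX1: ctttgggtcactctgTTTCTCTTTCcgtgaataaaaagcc
ISG20: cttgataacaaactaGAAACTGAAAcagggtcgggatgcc
The ISG15 copy starts 107 bases before the start of transcription and the BST2 copy 130 bases before it. In ISG15, IFI27, IFIT1 and BST2 a further copy lies close by and shares letters with these stretches. A match describes the letters in a window and says nothing of binding in these cells.

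Replicate 3 of the untreated cells and replicate 3 of the bead group stood apart from the rest. Their median correlation with the other arrays was 0.649 and 0.636, against 0.947 to 0.992 for the other 16, and the standard deviation of log2 signal over all probe sets was 1.56 and 1.57 against 2.01 to 2.25. A list of 14 endothelial marker genes averaged 7.16 and 6.35 in these 2 arrays and between 9.21 and 9.34 in the other 4 control arrays. Lists of 15 T cell markers, 9 fibroblast and smooth muscle markers and 6 epithelial markers averaged at least 5.27, 5.38 and 6.14 in both, above the other 4 controls, where the highest were 4.30, 4.75 and 5.30. A list of 8 monocyte markers was likewise higher (5.27 and 5.35 against 4.66 to 4.80), and 4 markers of plasmacytoid dendritic cells averaged lower (4.93 and 5.15 against 5.47 to 5.69). Those 4 arrays, replicates 1 and 2 of each control group, are called the concordant controls. Jurkat MHC1+ replicate 1 had the lowest correlation and standard deviation of the remaining 16. Every comparison is therefore given for all 18 arrays, which is the design as deposited, and for the 16 arrays without both replicates 3; values for 15 arrays, which also leave out Jurkat MHC1+ replicate 1, are given where they move a result.

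At rest, in untreated cells and with beads, the interferon-stimulated genes were well above the middle of the array. In the 4 control arrays other than both replicates 3, the mean log2 signal of the 38 genes lay between 9.08 and 9.40, all 38 exceeded the median of all genes on the same array (5.55 to 5.59), and 31 to 33 exceeded the upper quartile. Signals of different probe sets do not rank genes by abundance, so this places the list only within the distribution of the array. In replicate 3 of untreated cells and of the bead group the mean of the list was 6.10 and 5.82, with 23 and 18 genes above the median. For 33 of the 38 genes both of these arrays lay below all 4 of the other controls, for ISG20 and IRF7 both lay above them, and OASL, CMPK2 and IRF9 were mixed. No share of all genes is given beside this count, so it is not read as particular to the list. The 90th percentile of all genes was also lower in these 2 arrays, at 7.33 and 7.07 against 8.41 to 8.62 in the other 4. The difference between the 4 and the 2 arrays ran from 5.40 for IFI44L to -1.32 for ISG20 on the log2 scale. How far the marker genes above moved with this difference stands beside it, and their part in it was not tested.

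With EVs the mean of the list lay below the range of the concordant controls in every array of both Jurkat groups and in 2 of the 3 JinB8 CD63+ arrays. JinB8 CD63+ replicate 2 and all 3 JinB8 MHC1+ arrays lay within that range. The mean over the 38 genes was 8.79 to 8.94 in the Jurkat CD63+ arrays, 8.45 to 9.02 with Jurkat MHC1+ EVs, 8.63 to 9.08 with JinB8 CD63+ EVs and 9.16 to 9.27 with JinB8 MHC1+ EVs. Over the 16 arrays each of the 38 genes had its lowest group mean in an EV group. It was Jurkat MHC1+ for 17 genes, JinB8 CD63+ for 16, Jurkat CD63+ for 3 and JinB8 MHC1+ for 2. The highest group mean was in untreated cells for 11 genes, in the bead group for 13 and in JinB8 MHC1+ for 14. No share of all genes is given beside these counts, and most groups are EV groups, so the counts are not read as particular to the list. Jurkat MHC1+ and JinB8 CD63+ also held the arrays of lowest standard deviation over all probe sets among the 16. It was 2.01 in Jurkat MHC1+ replicate 1, and 2.12 and 2.05 in JinB8 CD63+ replicates 1 and 3. How far this spread set the lowest means was not tested gene by gene.

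**Figure D1:**
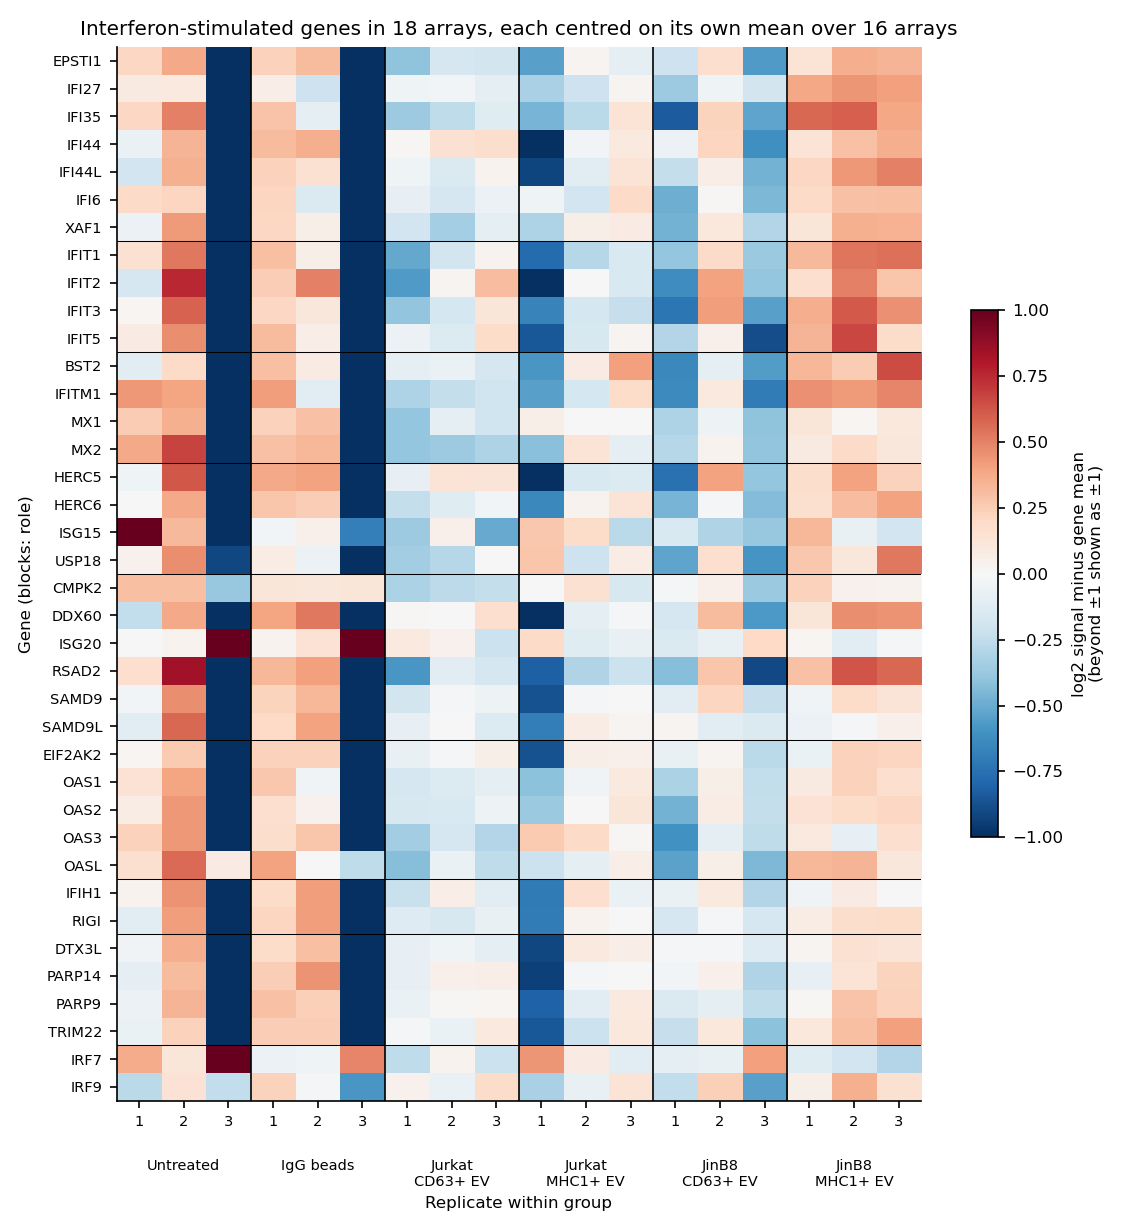
Each row is 1 of the 38 genes in blocks by role and each column 1 array; colour is the log2 signal minus the mean of that gene over the 16 arrays, with values beyond ±1 drawn as ±1. Replicate 3 of both control groups is dark blue for nearly all genes and red for ISG20 and IRF7, Jurkat MHC1+ replicate 1 is blue for most genes, and the 3 JinB8 MHC1+ arrays are red for most.

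The dynamin-like GTPases MX1, which traps viral nucleocapsids in the cytoplasm, and MX2, its relative at the nuclear envelope, were the genes whose EV arrays lay apart from the controls. MX1 read 10.66, 10.76 and 7.28 in untreated cells, 10.64, 10.70 and 6.45 with beads, 10.02, 10.30 and 10.21 with Jurkat CD63+ EVs, 10.46, 10.41 and 10.41 with Jurkat MHC1+ EVs, 10.10, 10.36 and 10.00 with JinB8 CD63+ EVs and 10.52, 10.42 and 10.51 with JinB8 MHC1+ EVs. In all 12 EV arrays MX1 was lower (10.00 to 10.52) than in the concordant controls (10.64 to 10.76), and higher than in both replicates 3. MX2 read 10.24, 10.54 and 6.49 in untreated cells, 10.16, 10.20 and 5.34 with beads, 9.48, 9.50 and 9.55 with Jurkat CD63+ EVs, 9.45, 9.998 and 9.77 with Jurkat MHC1+ EVs, 9.58, 9.90 and 9.46 with JinB8 CD63+ EVs and 9.95, 10.06 and 9.97 with JinB8 MHC1+ EVs. Here too the EV arrays (9.45 to 10.06) lay below those 4 controls (10.16 to 10.54) without overlap, and above both replicates 3.

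Among the membrane proteins, IFITM1, which hinders fusion of enveloped viruses, and BST2, or tetherin, which holds budding virions at the surface, varied mostly between EV groups. IFITM1 read 12.08, 12.04 and 8.46 in untreated cells, 12.06, 11.54 and 8.85 with beads, 11.34, 11.41 and 11.45 with Jurkat CD63+ EVs, 11.11, 11.48 and 11.83 with Jurkat MHC1+ EVs, 11.01, 11.75 and 10.95 with JinB8 CD63+ EVs and 12.11, 12.07 and 12.14 with JinB8 MHC1+ EVs. Its JinB8 MHC1+ arrays were the highest 3 among the EV arrays and overlapped with the controls, while JinB8 CD63+ replicates 1 and 3 were the lowest of the 16 arrays. BST2 read 8.96, 9.26 and 5.84 in untreated cells, 9.36, 9.14 and 6.57 with beads, 8.97, 8.99 and 8.90 with Jurkat CD63+ EVs, 8.48, 9.14 and 9.47 with Jurkat MHC1+ EVs, 8.42, 8.97 and 8.50 with JinB8 CD63+ EVs and 9.39, 9.32 and 9.72 with JinB8 MHC1+ EVs. JinB8 MHC1+ arrays exceeded every JinB8 CD63+ array, and the Jurkat MHC1+ arrays reached into both ranges.

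ISG15 is a ubiquitin-like protein that is conjugated to other proteins, HERC5 is the ligase that attaches it, HERC6 is the relative of HERC5, and USP18 removes it and also damps signalling at the receptor. ISG15 read 9.52, 8.81 and 6.69 in untreated cells, 8.45, 8.53 and 7.80 with beads, 8.11, 8.53 and 7.98 with Jurkat CD63+ EVs, 8.74, 8.67 and 8.21 with Jurkat MHC1+ EVs, 8.32, 8.18 and 8.10 with JinB8 CD63+ EVs and 8.81, 8.40 and 8.29 with JinB8 MHC1+ EVs. Untreated replicate 1 stood above all other arrays, and the other 15 of the 16 arrays lay between 7.98 and 8.81. The JinB8 CD63+ arrays lay below the 4 concordant controls, and the other EV groups overlapped with them. HERC5 read 6.26, 6.92 and 4.23 in untreated cells, 6.68, 6.70 and 4.44 with beads, 6.22, 6.43 and 6.43 with Jurkat CD63+ EVs, 4.96, 6.15 and 6.17 with Jurkat MHC1+ EVs, 5.56, 6.71 and 5.92 with JinB8 CD63+ EVs and 6.48, 6.70 and 6.53 with JinB8 MHC1+ EVs. Jurkat MHC1+ replicate 1 was the lowest of the 16 arrays, all 3 Jurkat MHC1+ arrays lay below the concordant controls, and the other EV groups overlapped with them. HERC6 averaged 8.82 ± 0.16 (SD, n = 4) in the 4 controls and ran from 7.95 to 8.998 over the EV arrays. USP18 averaged 7.45 ± 0.23 (SD, n = 4) in those controls and ran from 6.72 to 7.85 in the EV arrays.

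The oligoadenylate synthetases OAS1, OAS2 and OAS3 make the 2-5A messenger that activates RNase L, OASL is a relative that acts on RNA sensing, and EIF2AK2 (PKR) halts translation on binding double-stranded RNA. OAS3 read 9.14, 9.35 and 6.24 in untreated cells, 9.09, 9.19 and 6.29 with beads, 8.56, 8.74 and 8.61 with Jurkat CD63+ EVs, 9.17, 9.10 and 8.92 with Jurkat MHC1+ EVs, 8.30, 8.81 and 8.65 with JinB8 CD63+ EVs and 9.003, 8.83 and 9.08 with JinB8 MHC1+ EVs. CD63+ arrays of both donor lines (8.30 to 8.81) lay below all 4 of the concordant controls (9.09 to 9.35), as did JinB8 MHC1+ arrays by a small margin, while Jurkat MHC1+ arrays reached into them. OASL read 6.72, 7.13 and 6.65 in untreated cells, 6.97, 6.57 and 6.31 with beads, 6.14, 6.50 and 6.31 with Jurkat CD63+ EVs, 6.35, 6.46 and 6.63 with Jurkat MHC1+ EVs, 6.03, 6.62 and 6.11 with JinB8 CD63+ EVs and 6.90, 6.91 and 6.67 with JinB8 MHC1+ EVs. The JinB8 CD63+ arrays lay below the JinB8 MHC1+ arrays, and both replicates 3 of the controls were within the range of the other arrays. OAS1 and OAS2 averaged 10.47 ± 0.18 and 10.08 ± 0.18 (SD, n = 4) in the 4 controls and ran from 9.87 to 10.51 and from 9.43 to 10.11 over the EV arrays. EIF2AK2 averaged 10.38 ± 0.11 (SD, n = 4) and ran from 9.32 to 10.42 with EVs.

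Some of the IFIT proteins, such as IFIT1, bind viral RNA that lacks the host cap structure and keep it from being translated. IFIT1 read 9.72, 10.09 and 5.89 in untreated cells, 9.87, 9.63 and 4.76 with beads, 9.05, 9.38 and 9.60 with Jurkat CD63+ EVs, 8.80, 9.28 and 9.41 with Jurkat MHC1+ EVs, 9.18, 9.76 and 9.20 with JinB8 CD63+ EVs and 9.89, 10.11 and 10.12 with JinB8 MHC1+ EVs. All 3 JinB8 MHC1+ arrays were above all 9 other EV arrays and overlapped with the controls. IFIT5 read 7.05, 7.43 and 4.52 in untreated cells, 7.28, 7.04 and 4.75 with beads, 6.91, 6.83 and 7.15 with Jurkat CD63+ EVs, 6.12, 6.81 and 6.99 with Jurkat MHC1+ EVs, 6.68, 7.02 and 6.08 with JinB8 CD63+ EVs and 7.31, 7.63 and 7.15 with JinB8 MHC1+ EVs. Jurkat MHC1+ replicate 1 and JinB8 CD63+ replicate 3 were its lowest values among the 16 arrays. IFIT2 and IFIT3 averaged 7.50 ± 0.39 and 7.96 ± 0.25 (SD, n = 4) in the controls and ran from 5.88 to 7.68 and from 7.01 to 8.34 over the EV arrays.

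Other members act on RNA or nucleotides. RSAD2 (viperin) makes a chain-terminating nucleotide from CTP, CMPK2 is a mitochondrial nucleotide kinase and neighbour of RSAD2 on chromosome 2, DDX60 is a helicase that promotes sensing of viral RNA, SAMD9 and SAMD9L restrict poxviruses, and ISG20 is an exonuclease. RSAD2 read 8.90, 9.57 and 6.09 in untreated cells, 9.06, 9.14 and 5.45 with beads, 8.15, 8.61 and 8.56 with Jurkat CD63+ EVs, 7.92, 8.43 and 8.51 with Jurkat MHC1+ EVs, 8.31, 9.01 and 7.82 with JinB8 CD63+ EVs and 9.02, 9.36 and 9.30 with JinB8 MHC1+ EVs. JinB8 MHC1+ arrays overlapped with the controls and exceeded the other EV arrays, with JinB8 CD63+ replicate 2 only just below. DDX60 read 8.02, 8.64 and 4.26 in untreated cells, 8.65, 8.79 and 4.69 with beads, 8.27, 8.26 and 8.43 with Jurkat CD63+ EVs, 6.53, 8.17 and 8.25 with Jurkat MHC1+ EVs, 8.10, 8.57 and 7.69 with JinB8 CD63+ EVs and 8.38, 8.73 and 8.71 with JinB8 MHC1+ EVs. Jurkat MHC1+ replicate 1, at 6.53, was more than 1 log2 unit below every other EV array, and the rest overlapped with the controls. CMPK2 read 6.88, 6.88 and 6.20 in untreated cells, 6.69, 6.68 and 6.69 with beads, 6.25, 6.31 and 6.33 with Jurkat CD63+ EVs, 6.58, 6.72 and 6.41 with Jurkat MHC1+ EVs, 6.56, 6.63 and 6.20 with JinB8 CD63+ EVs and 6.80, 6.62 and 6.61 with JinB8 MHC1+ EVs. CMPK2 in the CD63+ arrays of both donor lines (6.20 to 6.63) lay below the concordant controls (6.68 to 6.88), and both MHC1+ groups overlapped with them. Replicate 3 of the bead group was in the range of the other controls. SAMD9L read 10.05, 10.74 and 5.94 in untreated cells, 10.37, 10.57 and 4.69 with beads, 10.09, 10.16 and 10.03 with Jurkat CD63+ EVs, 9.47, 10.24 and 10.20 with Jurkat MHC1+ EVs, 10.20, 10.06 and 10.02 with JinB8 CD63+ EVs and 10.11, 10.15 and 10.22 with JinB8 MHC1+ EVs. EV arrays and controls overlapped, with Jurkat MHC1+ replicate 1 lowest. SAMD9 averaged 10.35 ± 0.21 (SD, n = 4) in the controls and ran from 9.24 to 10.32 with EVs.

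The exonuclease ISG20 did not follow the list. It read 6.002, 6.03 and 7.32 in untreated cells, 6.03, 6.14 and 7.41 with beads, 6.09, 6.04 and 5.78 with Jurkat CD63+ EVs, 6.19, 5.87 and 5.92 with Jurkat MHC1+ EVs, 5.85, 5.92 and 6.20 with JinB8 CD63+ EVs and 6.02, 5.89 and 5.98 with JinB8 MHC1+ EVs. Over the 16 arrays it stayed between 5.78 and 6.20, and it was higher in both replicates 3 of the controls, the opposite of most of the other genes.

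RIGI and IFIH1 (MDA5) are the cytoplasmic sensors of viral RNA that lead to production of interferon. RIGI averaged 9.82 ± 0.25 (SD, n = 4) in the 4 controls and ran from 8.89 to 9.77 over the EV arrays, and IFIH1 averaged 9.30 ± 0.20 and ran from 8.32 to 9.20. The transcription factors IRF9, the DNA-binding part of ISGF3, and IRF7, which amplifies interferon production, are the other regulators on the list. IRF9 averaged 7.40 ± 0.22 (SD, n = 4) in the controls and 7.37 ± 0.26 (SD, n = 12) in the EV arrays. IRF7 read 7.26, 7.01 and 8.01 in untreated cells, 6.83, 6.85 and 7.38 with beads, 6.64, 6.92 and 6.68 with Jurkat CD63+ EVs, 7.33, 6.97 and 6.78 with Jurkat MHC1+ EVs, 6.79, 6.82 and 7.30 with JinB8 CD63+ EVs and 6.77, 6.70 and 6.60 with JinB8 MHC1+ EVs. Its JinB8 MHC1+ arrays lay below the other EV arrays apart from the Jurkat CD63+ ones, with which they overlapped.

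Of the ubiquitin and ADP-ribose enzymes, PARP9 and DTX3L form a complex that modifies histones and promotes interferon signalling, PARP14 is an ADP-ribosyltransferase encoded beside them on chromosome 3, and TRIM22 is an antiviral ubiquitin ligase. PARP14 read 9.53, 9.94 and 4.87 in untreated cells, 9.87, 10.07 and 5.05 with beads, 9.54, 9.67 and 9.68 with Jurkat CD63+ EVs, 8.69, 9.61 and 9.61 with Jurkat MHC1+ EVs, 9.59, 9.67 and 9.32 with JinB8 CD63+ EVs and 9.54, 9.76 and 9.84 with JinB8 MHC1+ EVs. Apart from Jurkat MHC1+ replicate 1 the EV arrays lay within 1 log2 unit of one another and overlapped with the controls. PARP9 and DTX3L averaged 9.79 ± 0.18 and 9.81 ± 0.17 (SD, n = 4) in the controls and ran from 8.78 to 9.87 and from 8.69 to 9.76 over the EV arrays. TRIM22 averaged 9.60 ± 0.16 (SD, n = 4) and ran from 8.58 to 9.84 with EVs.

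The remaining genes carry the names by which they were first found after interferon treatment. IFI6 and IFI27 are small membrane proteins linked to mitochondria or the endoplasmic reticulum, IFI35 is a leucine zipper protein, IFI44 and IFI44L are related cytoplasmic proteins, XAF1 promotes cell death and EPSTI1 is an epithelial-stromal interaction protein. IFI27 read 11.80, 11.81 and 8.54 in untreated cells, 11.78, 11.50 and 9.47 with beads, 11.67, 11.69 and 11.61 with Jurkat CD63+ EVs, 11.39, 11.50 and 11.74 with Jurkat MHC1+ EVs, 11.35, 11.67 and 11.53 with JinB8 CD63+ EVs and 12.10, 12.15 and 12.12 with JinB8 MHC1+ EVs. The 3 JinB8 MHC1+ arrays (12.10 to 12.15) lay above all other 15 arrays, and IFI27 was the only member for which they lay above the other 13 of the 16 arrays (2.78% of all genes; 0 members and 1.53% of genes lay below them). IFI6 read 12.84, 12.86 and 10.32 in untreated cells, 12.86, 12.51 and 9.77 with beads, 12.56, 12.48 and 12.59 with Jurkat CD63+ EVs, 12.61, 12.46 and 12.84 with Jurkat MHC1+ EVs, 12.16, 12.66 and 12.20 with JinB8 CD63+ EVs and 12.84, 12.94 and 12.95 with JinB8 MHC1+ EVs. JinB8 MHC1+ arrays exceeded all CD63+ arrays and overlapped with the controls, and Jurkat MHC1+ replicate 3 equalled the lowest of them to 2 decimals.

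IFI35 read 8.96, 9.26 and 7.03 in untreated cells, 9.04, 8.67 and 7.53 with beads, 8.39, 8.50 and 8.64 with Jurkat CD63+ EVs, 8.29, 8.49 and 8.89 with Jurkat MHC1+ EVs, 7.92, 8.98 and 8.23 with JinB8 CD63+ EVs and 9.33, 9.35 and 9.14 with JinB8 MHC1+ EVs. Its JinB8 MHC1+ arrays overlapped with the controls and exceeded all other EV arrays. IFI44 read 9.38, 9.78 and 5.10 in untreated cells, 9.75, 9.81 and 4.69 with beads, 9.45, 9.59 and 9.61 with Jurkat CD63+ EVs, 7.75, 9.41 and 9.54 with Jurkat MHC1+ EVs, 9.38, 9.66 and 8.83 with JinB8 CD63+ EVs and 9.57, 9.74 and 9.80 with JinB8 MHC1+ EVs. Jurkat MHC1+ replicate 1 was the lowest of the 16 arrays by more than 1 log2 unit. IFI44L read 10.94, 11.49 and 6.23 in untreated cells, 11.36, 11.28 and 5.50 with beads, 11.08, 10.99 and 11.17 with Jurkat CD63+ EVs, 10.21, 11.02 and 11.26 with Jurkat MHC1+ EVs, 10.89, 11.20 and 10.66 with JinB8 CD63+ EVs and 11.34, 11.57 and 11.63 with JinB8 MHC1+ EVs. The JinB8 MHC1+ arrays were above the other EV arrays and overlapped with the controls. XAF1 read 10.33, 10.82 and 7.13 in untreated cells, 10.60, 10.45 and 5.83 with beads, 10.20, 10.05 and 10.29 with Jurkat CD63+ EVs, 10.08, 10.45 and 10.47 with Jurkat MHC1+ EVs, 9.92, 10.49 and 10.10 with JinB8 CD63+ EVs and 10.51, 10.75 and 10.74 with JinB8 MHC1+ EVs. The same order held, with a gap between JinB8 MHC1+ and other EV arrays smaller than the range of the controls. EPSTI1 averaged 8.37 ± 0.08 (SD, n = 4) in the 4 controls and ran from 7.53 to 8.45 in the EV arrays.

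**Figure D2:**
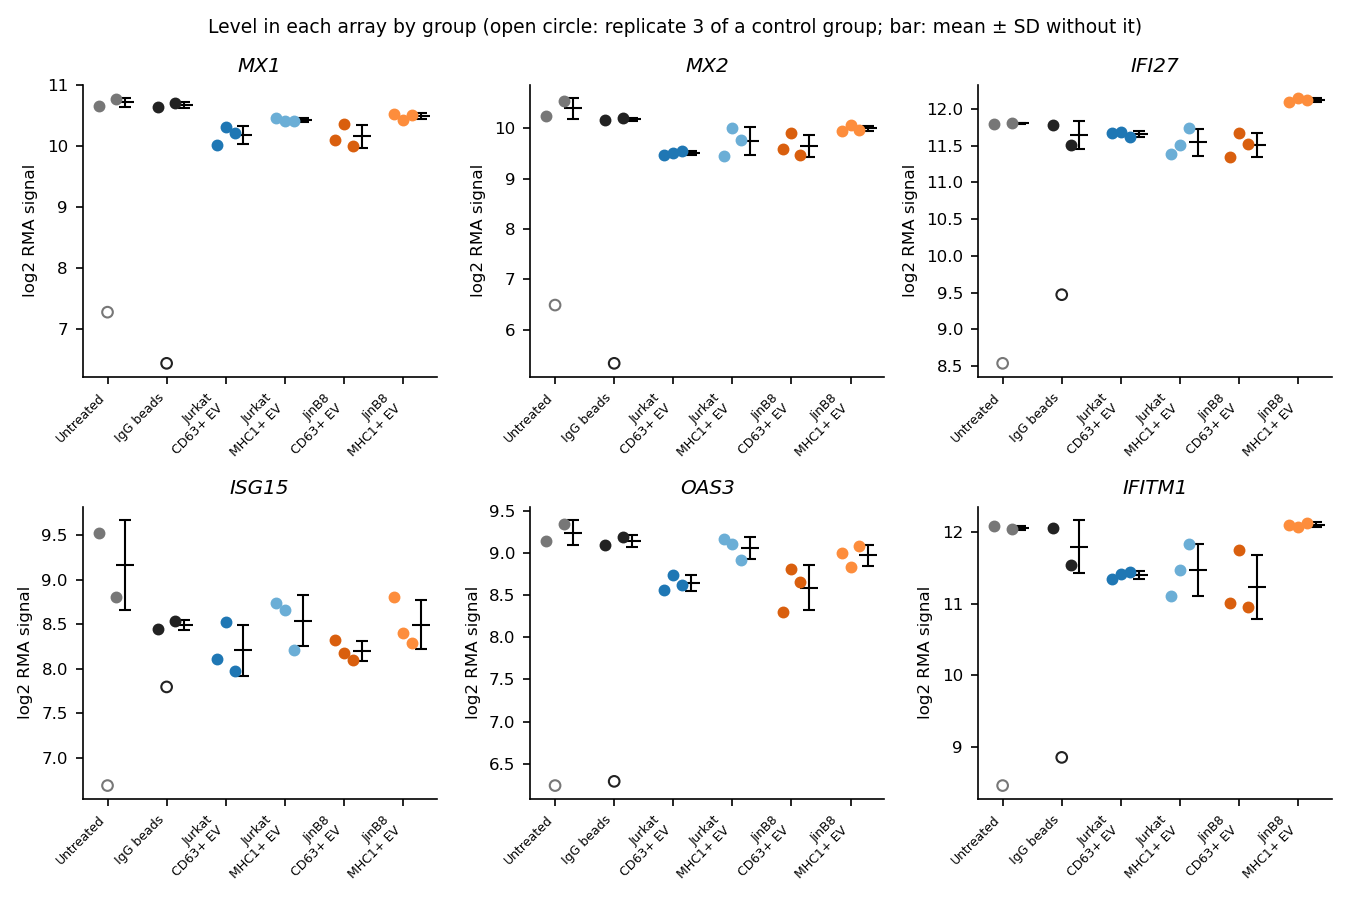
Log2 signal of 6 genes in each array by group; filled points are arrays, open circles are replicate 3 of the control groups, and bars give mean ± SD without the open circles. MX1 and MX2 are lower in all 12 EV arrays than in the filled control points, and IFI27 is highest in the 3 JinB8 MHC1+ arrays, from 12.10 to 12.15.

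Whether vesicles changed these genes was tested first for the 4 EV groups together against beads, with limma fitted over all genes. In the 18 arrays 34 of 38 differences were positive, with a median of 0.96 (-0.06 over all genes). None was called at an adjusted p under 0.05 and none had an unadjusted p under 0.05, while 0.00543% and 3.83% of all genes did. Without both replicates 3, 36 of 38 differences were negative, with a median of -0.29 (0.01 over all genes), and again none was called (0.0434% of all genes). At an unadjusted p under 0.05, 8 members were lower and none higher (2.02% of all genes lower): MX1, MX2, OAS3, RIGI, EPSTI1, PARP14, IFIH1 and SAMD9L. The direction of the list against beads therefore turned on bead replicate 3, which the median correlation above sets apart.

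For MX1 the difference from beads was -0.36 ± 0.11 (SE; 95% interval -0.59 to -0.13; limma adjusted p = 0.92) in the 16 arrays and 1.05 ± 0.76 (adjusted p = 0.52) in the 18. For MX2 it was -0.45 ± 0.14 (-0.75 to -0.16; adjusted p = 0.92) in the 16 arrays and 1.16 ± 0.87 (adjusted p = 0.52) in the 18. Over all fits tried, the adjusted p for these ran from 0.20 to 1.0. MX1 and MX2 were the 2 members whose 12 EV arrays all lay below the 4 concordant controls (0.239% of all genes), and 0 members lay above them (0.0923%). In the 16 arrays the highest upper 95% limit of any member was 0.35, for USP18, so a larger increase lies outside the interval of each of the 38 genes. In the 18 arrays the highest upper limit was 3.996, for IFI44L, and an increase of that size could not be told from the spread between arrays.

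**Figure D3:**
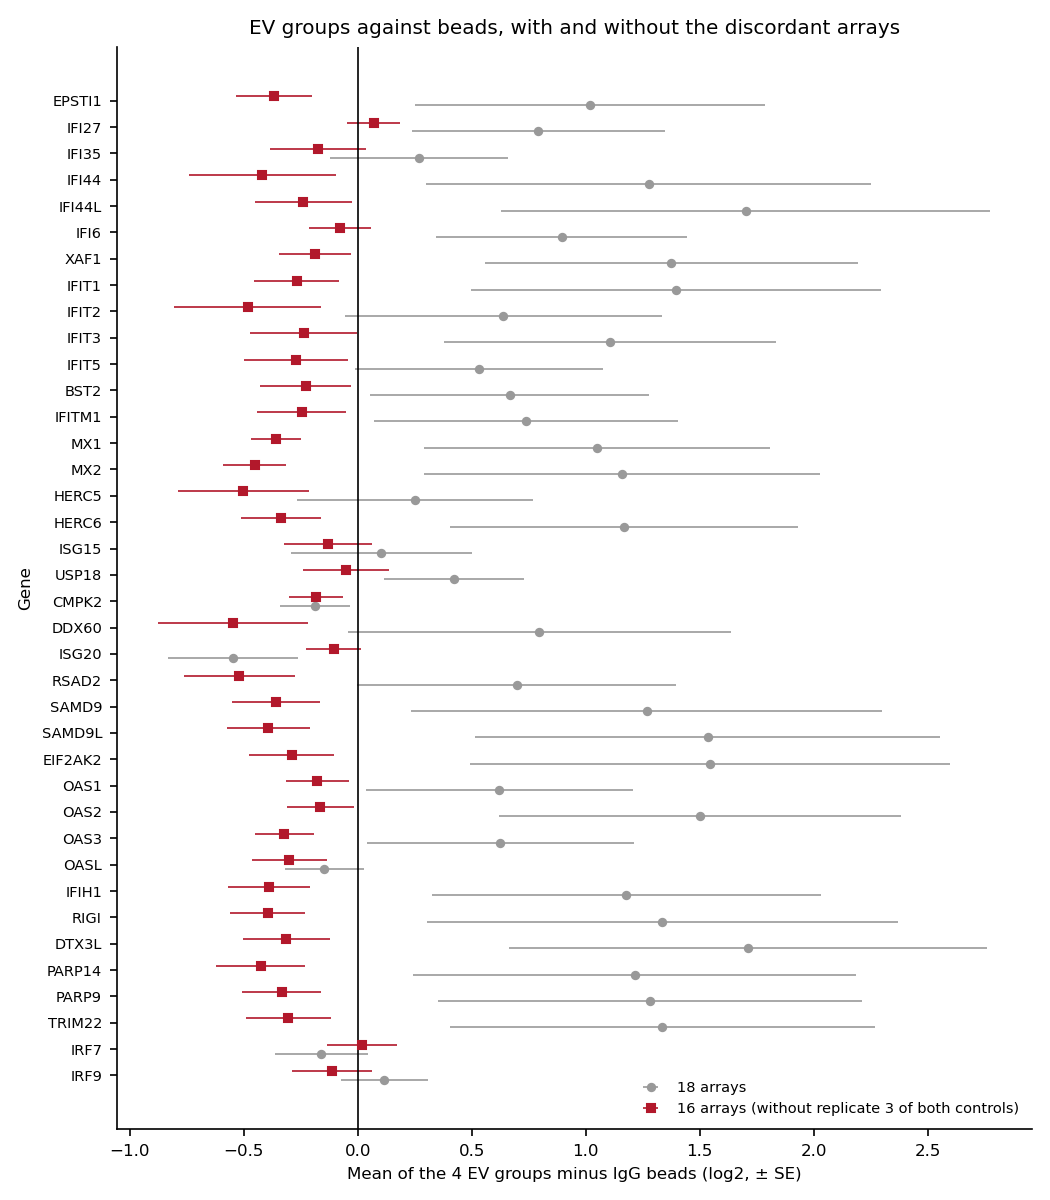
Mean of the 4 EV groups minus IgG beads on the log2 scale with its SE for each of the 38 genes, in all 18 arrays (circles) and without replicate 3 of both control groups (squares). Circles lie right of 0 for 34 genes with long bars, and squares lie left of 0 for 36 genes.

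The same 12 EV arrays were set against untreated cells. In the 18 arrays the median was 0.77 and 34 differences were positive, with none called (0.00543% of all genes) and 1 at an unadjusted p under 0.05 (5.84% of all genes), IRF7 at -0.57 ± 0.20 (SE; limma adjusted p = 0.42). This IRF7 value includes untreated replicate 3, which read 8.01 against 7.26 and 7.01 in replicates 1 and 2. In the 16 arrays the median was -0.31 and 37 of 38 were negative, with none called (0.0326%) and 12 lower at an unadjusted p under 0.05 (1.93% of all genes lower). MX2 differed by -0.67 ± 0.14 (SE; limma adjusted p = 0.22), ISG15 by -0.80 ± 0.19 (adjusted p = 0.39) and MX1 by -0.40 ± 0.11 (adjusted p = 0.76). The adjusted p for MX2 ran from 0.0049 to 1.0 over the fits tried and that for ISG15 from 0.0030 to 1.0. MX2 passed 0.05 when Jurkat MHC1+ replicate 1 was also left out (0.147% of all genes called), and both MX2 and ISG15 passed with the standard deviation of each array as a covariate in the 16 arrays (0.451%). ISG15 also passed in the 18 arrays with array weights (1.59%). Without untreated replicate 2 the median in the 16 arrays was -0.09 in place of -0.31, and without untreated replicate 1 it was -0.47.

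Beads by themselves were compared with no beads. The median difference was -0.05 in the 18 and -0.03 in the 16 arrays, from -0.18 to 0.17 without untreated replicate 1 or 2, and no member was called (0.0% of all genes in both). At an unadjusted p under 0.05 there was no member in the 18 arrays (1.11% of all genes) and 1 lower in the 16 (0.695%). It was ISG15, at -0.67 ± 0.25 (SE; 95% interval -1.21 to -0.14; limma adjusted p = 1.0). This value rests on untreated replicate 1, at 9.52, without which it was -0.32. IRF7 (-0.30 ± 0.20) and CMPK2 (-0.19 ± 0.15) came next, with adjusted p = 1.0 each.

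The 4 EV groups were then set against beads one at a time. They share the bead arrays, so their values stand side by side and are not independent of one another. With Jurkat CD63+ EVs the median of the list was 0.89 in 18 arrays and -0.33 in 16, with 37 of 38 negative in the latter. None was called (0.00543% of all genes in both), and at an unadjusted p under 0.05 there were 0 in the 18 arrays (1.06%) and 8 lower in the 16 (0.728%). MX2 differed by -0.67 ± 0.17 (SE), MX1 by -0.49 ± 0.13 and OAS3 by -0.50 ± 0.15 in the 16 arrays, each with a limma adjusted p of 1.0.

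With Jurkat MHC1+ EVs the median was 0.85 in 18 and -0.45 in 16 arrays, 35 negative. None was called (0.0% in both), with 0 (1.19%) and 17 lower (6.37%) at an unadjusted p under 0.05. PARP14 differed by -0.67 ± 0.23 (SE), RSAD2 by -0.82 ± 0.29 and DDX60 by -1.07 ± 0.39 in the 16 arrays, with limma adjusted p = 0.47 each. Replicate 1 of this group lay lowest of its 3 for all 3 genes. Without it the median was -0.20 and 3 members were lower at an unadjusted p under 0.05 (1.41% of all genes).

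With JinB8 CD63+ EVs the median was 0.82 in 18 and -0.43 in 16 arrays, 37 negative. None was called (0.00543% and 0.0923% of all genes), with 0 (1.48%) and 10 lower (3.96%) at an unadjusted p under 0.05. MX1 differed by -0.51 ± 0.13 (SE; limma adjusted p = 0.30), OAS3 by -0.55 ± 0.15 (adjusted p = 0.42) and MX2 by -0.53 ± 0.17 (adjusted p = 0.52) in the 16 arrays. The median was -0.15, with 35 negative, once the standard deviation of each array was a covariate in the 16 arrays. There 5 members were lower at an unadjusted p under 0.05, and 1979 of 18417 genes passed in either direction. With that covariate the medians against beads were -0.27 for Jurkat CD63+ and -0.19 for Jurkat MHC1+ EVs.

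With JinB8 MHC1+ EVs the median was 1.29 in 18 arrays and 0.01 in 16, with 18 negative and 20 positive. None was called (0.0434% and 0.212%), with 0 (5.04%) and 1 higher (3.21%) at an unadjusted p under 0.05. The 1 was IFI27, at 0.48 ± 0.14 (SE; 95% interval 0.19 to 0.78; limma adjusted p = 0.37 in the 16 arrays and 0.0092 to 1.0 over all fits). IFI35 (0.42 ± 0.25) and SAMD9L (-0.31 ± 0.22) followed, each with adjusted p = 1.0. With the standard deviation of each array as a covariate in the 16 arrays the median was -0.06, with 26 negative and 12 positive. None was called there, and 7 members were lower and 1 higher at an unadjusted p under 0.05. In that fit 2207 of 18417 genes passed in either direction.

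Between EV groups the JinB8 MHC1+ group held the highest values of the list. Against JinB8 CD63+ EVs, which differ in the capture antibody, 36 of 38 genes were higher with MHC1+ EVs, and the median was 0.44 (CD63+ minus MHC1+ over all genes, 0.03). The control arrays enter this comparison only through the pooled spread. In the 18-array fit none of the 38 was called (0.00543% of all genes) and 1 had an unadjusted p under 0.05 (1.7%), OASL at -0.57 ± 0.22 (SE, CD63+ minus MHC1+). In the 16-array fit none was called (0.185%) and 21 were lower with CD63+ EVs at an unadjusted p under 0.05 (9.94% of all genes lower). MHC1+ exceeded CD63+ by 0.61 ± 0.12 (SE) for IFI27 (limma adjusted p = 0.066), 0.87 ± 0.21 for IFITM1 (adjusted p = 0.13), 0.90 ± 0.22 for IFI35 and 0.85 ± 0.21 for BST2 (adjusted p = 0.15 each). The adjusted p for IFI27 ran from 0.0047 to 1.0 over the fits tried. In the 15-array fit 5 members were called (1.93% of all genes), IFI27, IFITM1, IFI35, BST2 and HERC6.

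The groups did not overlap for 21 of the 38 genes, with all JinB8 MHC1+ arrays above all JinB8 CD63+ arrays (12.8% of all genes), and IRF7 was the 1 member below (14.5%). Leaving JinB8 CD63+ replicate 2, the highest of that group for most of the list, out of the 16 arrays gave 13 called members and 3.88% of all genes called.

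Against Jurkat MHC1+ EVs, which differ in the donor line, 34 of 38 genes were higher with JinB8 MHC1+ EVs, and the median was 0.39 (-0.06 over all genes). None was called in the 18 arrays (0.0326%) and 0 had an unadjusted p under 0.05 (3.43%). In the 16 arrays none was called (0.386%) and 16 (42.1%) were higher at an unadjusted p under 0.05, beside 17.1% of all genes. IFI27 differed by 0.58 ± 0.12 (SE; limma adjusted p = 0.061), IFIT1 by 0.88 ± 0.20 (adjusted p = 0.070), RSAD2 by 0.94 ± 0.26 (adjusted p = 0.087) and IFIT3 by 0.84 ± 0.25 (adjusted p = 0.094). Over the fits tried the adjusted p for IFI27 ran from 0.00062 to 1.0 and that for IFIT1 from 0.0018 to 1.0. For 20 members all JinB8 MHC1+ arrays lay above all Jurkat MHC1+ arrays (15.5% of all genes), and for 1, IRF7, below (16.6%). Without Jurkat MHC1+ replicate 1 the median was 0.19 in place of 0.39, with 7 members higher at an unadjusted p under 0.05 (8.45% of all genes). Leaving Jurkat MHC1+ replicate 3 out of the 16 arrays gave 15 called members (39.5%), and 30.8% of all genes were called there too.

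**Figure D4:**
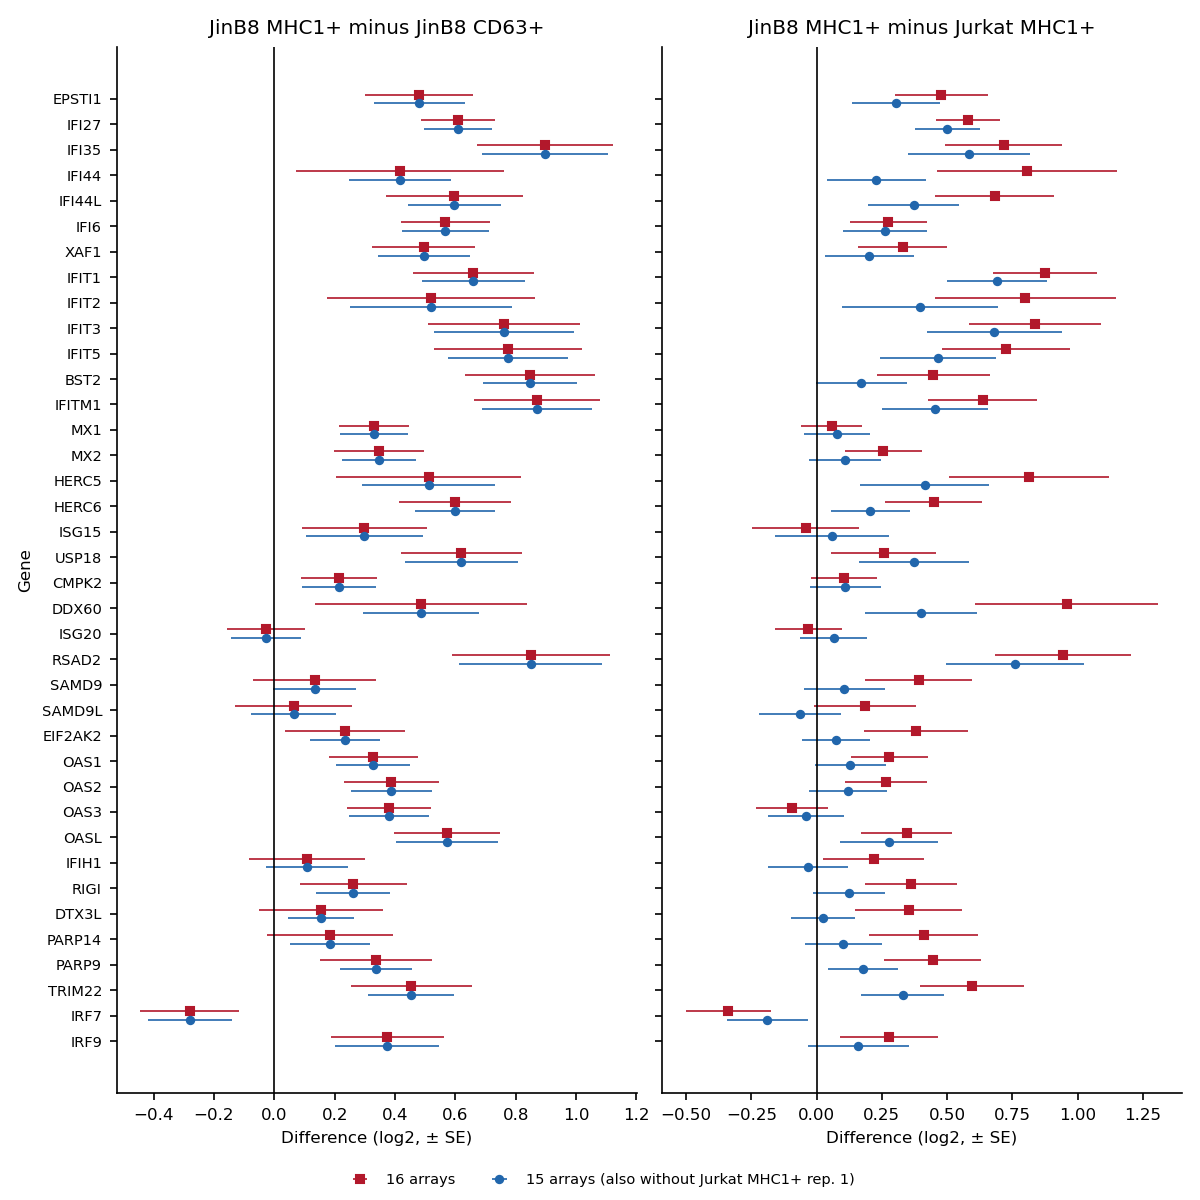
JinB8 MHC1+ EVs minus JinB8 CD63+ EVs (left) and minus Jurkat MHC1+ EVs (right) on the log2 scale with the SE for each of the 38 genes, in the 16 arrays (squares) and the 15 without Jurkat MHC1+ replicate 1 (circles). On the left 36 genes lie right of 0; on the right the median goes from 0.39 to 0.19 without that replicate, and IRF7 lies left of 0 in both.

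The spread of the arrays moved with these differences. The standard deviation over all probe sets was 2.21 to 2.25 in the JinB8 MHC1+ arrays, 2.05 to 2.19 in JinB8 CD63+, 2.01 to 2.21 in Jurkat MHC1+ and 2.16 to 2.20 in Jurkat CD63+ arrays. Over the 16 arrays it correlated with the mean of the 38 genes at Pearson's r = 0.868, given as a description, since both come from the same arrays. With it as a covariate in the 16 arrays the median of the list was -0.10 in place of -0.44 for CD63+ minus MHC1+ in JinB8. For JinB8 minus Jurkat within MHC1+ EVs it was 0.05 in place of 0.39, with 2 members higher at an unadjusted p under 0.05 in place of 16 (3.72% of all genes). In the same groups the 15 T cell markers averaged 4.11 in JinB8 MHC1+, 4.28 in JinB8 CD63+, 4.31 in Jurkat MHC1+ and 4.20 in Jurkat CD63+ arrays, and the 14 endothelial markers 9.17, 9.21, 9.26 and 9.29. The part of these in the differences was not tested beyond that covariate.

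**Figure D5:**
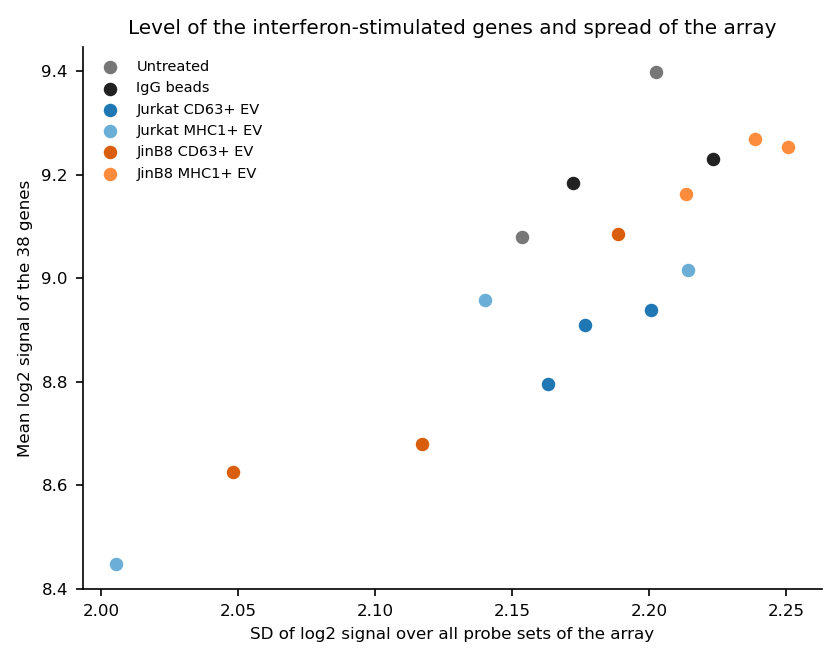
Mean log2 signal of the 38 genes in each of the 16 arrays (vertical) against the standard deviation of log2 signal over all probe sets of the array (horizontal), coloured by group. The array with the lowest spread, a Jurkat MHC1+ array at 2.01, also has the lowest mean, 8.45, and the JinB8 MHC1+ arrays lie at 2.21 to 2.25 and 9.16 to 9.27.

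Within Jurkat EVs and within CD63+ EVs the list differed less. CD63+ minus MHC1+ EVs of Jurkat had a median of 0.10 with 17 genes negative, and -0.13 without Jurkat MHC1+ replicate 1. None was called in either fit (0.0% and 0.00543% of all genes), with 0 (0.44%) and 3 lower (3.88%) at an unadjusted p under 0.05. These were OAS3 at -0.42 ± 0.14 (SE), MX1 at -0.25 ± 0.12 and CMPK2 at -0.27 ± 0.13 (limma adjusted p = 0.41 each). The CD63+ arrays of all 3 lay below the MHC1+ arrays (5.06% of all genes), while those of HERC5 and DDX60 lay above (5.92%).

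JinB8 minus Jurkat CD63+ EVs had a median of -0.09 with 27 genes negative. It was -0.00073 without JinB8 CD63+ replicate 3 and -0.20 without replicate 2 of that group. None was called (0.0% in both fits) and 0 members had an unadjusted p under 0.05 (0.255% in the 18 arrays; 2.23% lower in the 16). IFIT5 (-0.37 ± 0.24), BST2 (-0.32 ± 0.21) and IRF7 (0.22 ± 0.16, SE) were the members with the smallest p, with limma adjusted p = 0.87 each. Over the 38 genes the lowest 95% limit in the 16 arrays was -1.0003 (IFI44) and the highest 0.61 (IFIT2). For 35 genes the upper limit was under 0.5. For each gene, differences within its own interval were not resolved. JinB8 CD63+ arrays lay below Jurkat CD63+ arrays for PARP9 alone (5.06%) and above for 0 members (4.29%). The direction of the median reversed with the standard deviation of each array as a covariate in the 16 arrays. It was then 0.11, with 29 genes positive and 9 negative. At an unadjusted p under 0.05, 3 members were higher in that fit, where 1082 of 18417 genes passed in either direction.

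Averaged over both lines, CD63+ minus MHC1+ EVs had a median of -0.22 with 28 genes negative. None was called in the 18 (0.0109%) or 16 arrays (0.0217%), with 1 (OASL, -0.37 ± 0.15; 0.402% of all genes) and 14 lower (2.44%) at an unadjusted p under 0.05. OAS3 differed by -0.40 ± 0.10 (SE; limma adjusted p = 0.52 in the 16 arrays), MX1 by -0.29 ± 0.08 (adjusted p = 0.70) and IFITM1 by -0.47 ± 0.15 (adjusted p = 0.90). Averaged over both captures, JinB8 minus Jurkat EVs had a median of 0.16 with 34 genes positive, and 0.05 without Jurkat MHC1+ replicate 1. None was called (0.0% and 0.0543%), with 0 (0.706%) and 3 higher (3.2%) at an unadjusted p under 0.05, namely IFIT1 at 0.45 ± 0.14 (limma adjusted p = 0.72), IFI27 at 0.22 ± 0.09 and RSAD2 at 0.44 ± 0.18 (adjusted p = 0.75 each).

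Whether the effect of the donor line differed between captures was tested as an interaction. It had a median of 0.48 with 33 genes positive, and none was called (0.0% and 0.0163%), with 0 (2.44%) and 16 higher (17.3% of all genes higher) at an unadjusted p under 0.05. IRF7 was the 1 member lower (11.4% of all genes lower). IFI27 had 0.72 ± 0.17 (SE), IFIT5 1.10 ± 0.35 and IFIT1 0.84 ± 0.28 in the 16 arrays, with limma adjusted p = 0.14 each. With the standard deviation of each array as a covariate the median was -0.03. The test of any difference among the 6 groups called no member in either fit (0.0109% and 0.233% of all genes), with 0 (1.09%) and 17 (8.07%) at an unadjusted p under 0.05. MX2 had the smallest adjusted p in the 16 arrays (limma, 0.145), followed by MX1 (0.23) and IFI27 (0.25).

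Counts at an unadjusted p also moved with single arrays of the 16. The share of all genes passing in either direction moved too, and is given for the first array named at each end. For all EVs against beads the counts ran from 2 members, without bead replicate 1 or 2 (2.12%), to 13, without Jurkat MHC1+ replicate 1 or 3 (4.7%). For Jurkat CD63+ EVs against beads they ran from 4, without bead replicate 1 or Jurkat CD63+ replicate 1 (1.46%), to 14, without Jurkat MHC1+ replicate 1 (2.8%). For Jurkat MHC1+ EVs they ran from 1, without bead replicate 2 (6.04%), to 21, without replicate 3 of that group (31.0%). For JinB8 CD63+ EVs they ran from 3, without bead replicate 1 or JinB8 CD63+ replicate 1 (2.67%), to 23, without Jurkat MHC1+ replicate 1 or JinB8 CD63+ replicate 2 (13.8%). Against untreated cells they were lowest without untreated replicate 2 and highest without JinB8 CD63+ replicate 2. For JinB8 against Jurkat EVs the counts ran from 7 to 27 within MHC1+ EVs, without Jurkat MHC1+ replicates 1 and 3 in turn (12.2% and 48.1% of all genes). They ran from 0 to 7 within CD63+ EVs, the latter without JinB8 CD63+ replicate 2 (13.5% of all genes). For the interaction the highest count was 24, without JinB8 CD63+ replicate 2 (39.8% of all genes), and the lowest came without replicate 1 or 3 of that group.

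The genes around the list gave the setting of the pathway. Of 90 further pathway genes 82 were measured, and 0 were called in any of the 15 comparisons in the 18 or the 16 arrays. At an unadjusted p under 0.05 for EVs against beads there were 2 lower of 82 in the 18 arrays, where 3.83% of all genes passed in either direction, and 4 lower in the 16, where 2.02% of all genes were lower. Of the 16 measured interferon ligands, IFNL3, a lambda interferon, averaged 6.27 in the concordant controls, above the median of all genes, and the other 15 averaged below it, with IFNL1 (5.14) and IFNE (5.12) the next highest. IFNB1, the beta interferon, averaged 2.93 ± 0.11 (SD, n = 4) in the 4 concordant controls and 3.07 ± 0.13 (SD, n = 12) in the EV arrays, and the alpha interferons IFNA2, IFNA5, IFNA10 and IFNA16 averaged 3.19, 3.16, 3.01 and 3.04 in those controls. IFNE, an interferon of mucosal tissue, was the 1 ligand with an unadjusted p under 0.05 against beads in the 16 arrays, at -0.58 ± 0.22 (SE; limma adjusted p = 1.0).

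The receptor chains IFNAR1 and IFNAR2 averaged 8.29 ± 0.11 and 7.25 ± 0.17 (SD, n = 4) in those controls and 8.16 ± 0.43 and 7.09 ± 0.49 (SD, n = 12) with EVs. The kinases JAK1 and TYK2 averaged 11.12 ± 0.24 and 7.09 ± 0.08 in the controls and 11.07 ± 0.17 and 7.17 ± 0.11 with EVs. None of the receptor and kinase genes had an unadjusted p under 0.05 for EVs against beads in either fit. IFNAR1 differed by -0.21 ± 0.24 (SE) in the 16 arrays (limma adjusted p = 1.0), so its difference was within its error.

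Over the 16 arrays most members moved together. For 27 of the 38 the correlation with the mean of the list was above 0.8, highest for HERC6 (0.97), RSAD2 (0.96), EPSTI1 (0.95) and OAS1 (0.95). It was lowest for IRF7 (-0.44), ISG20 (-0.28), ISG15 (0.21) and OAS3 (0.50). Each gene is part of the mean it is set against, and the 16 arrays share the differences in spread given above, so these are descriptions. Outside the list the genes with the most similar pattern were the chemokine CXCL10 (r = 0.986 over 16 arrays), the prostaglandin synthase PTGS2 (0.957), the guanylate-binding protein GBP4 (0.948), RNF114 (0.944), the peptide-trimming enzyme ERAP1 (0.941), the RNA sensor TLR3 (0.940), CXCL11 (0.929), PLIN2 (0.927), PDLIM5 (0.924) and the adhesion molecule SELP (0.924). Without Jurkat MHC1+ replicate 1 these ran from 0.886 (PDLIM5) to 0.980 (CXCL10) over 15 arrays.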

How the data were processed

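Gene expression was measured on 18 Affymetrix whole-transcript arrays. The authors deposited a table of log2 expression values for 33297 probe sets, made with RMA in Affymetrix Expression Console, per the submitters' processing notes. The base of the logarithm was read from the values, and for other steps the sources used here give nothing. The platform annotation gave 1 symbol to 19460 probe sets, several to 1754 and none to 12083, and the probe set of highest mean was kept for each of 18417 genes. The samples' labels set the 6 groups. The deposited log2 values were fitted with limma 3.58.1 (R 4.3.3) across all genes, with Benjamini-Hochberg adjustment over all of them and a threshold of 0.05, in 18, 16 and 15 arrays. The script was tested on simulated data: for EVs against beads it called 13 of 50 genes changed by 1.0 log2 unit in 18 arrays and 43 of 50 in 16. Values in every array were given for the 6 members of highest and 4 of lowest resting mean, for those called or, with none called, the 3 of smallest p in the 16 arrays per comparison, and for the 8 of largest range of group means. Alternatives were array weights (gene by gene, since the REML fit did not converge), the array's standard deviation as a covariate, trend and robust moderation, other normalizations, a filter on the lowest 25% of genes, other sets of samples and probe sets, and leaving out each array. Members and lists were chosen with earlier results of these data known.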

Additional observations from a re-analysis of the deposited data

How the results depend on the processing

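Of 748 alternatives for the counts of called genes, 721 gave the same count as the 18 arrays. For EVs against beads the median SE was 0.74 in the 18 arrays and 0.18 in the 16, so fits that keep all 18 could call few small differences. The medians of the list moved by more than the spread of 1.1 in 19 of 322. Smaller moves did not count, such as 0.39 to 0.05 for JinB8 against Jurkat within MHC1+ EVs with array standard deviation as a covariate in the 16 arrays. Nor did 0.10 to -0.13 for CD63+ against MHC1+ EVs of Jurkat in the 15 arrays. Resting levels moved by more than 1 SD in 0 of 76. That count does not describe replicate 3 of the control groups. IFI44L, for example, averaged 11.27 ± 0.23 (SD, n = 4) in the concordant controls and 5.87 in the 2 discordant ones. Shares in parentheses are of all genes called in the same fit. Array weights called 1 gene for JinB8 MHC1+ EVs against beads (6.54%), 1 for EVs against untreated cells (1.59%), 19 for CD63+ against MHC1+ EVs of JinB8 (19.2%), 15 for JinB8 against Jurkat within MHC1+ EVs (33.4%), 5 for CD63+ against MHC1+ EVs over both lines (0.809%), 14 for the interaction (27.9%) and 21 for any difference (28.1%). The 15 arrays called 1 gene against untreated cells (0.147%), 5 for CD63+ against MHC1+ EVs of JinB8 (1.93%) and 1 for any difference (0.662%). Chosen after seeing the data, the standard deviation of each array as a covariate in the 16 arrays called 2 genes against untreated cells (0.451%), 3 for CD63+ against MHC1+ EVs over both lines (4.01%) and 4 for any difference (1.69%). Trend and robust moderation in the 16 arrays called 1 gene each for CD63+ against MHC1+ EVs of JinB8 (0.239%) and JinB8 against Jurkat within MHC1+ EVs (0.407%). An unadjusted p under 0.05 gave 1 gene each for EVs against untreated cells (5.84%), CD63+ against MHC1+ EVs of JinB8 (1.7%) and the same over both lines (0.402%). Leaving out 1 array called 0 genes in each comparison of the 18 arrays. In the 16 arrays it called 0 to 1 against untreated cells and for any difference, 0 to 13 for CD63+ against MHC1+ EVs of JinB8, and 0 to 15 for JinB8 against Jurkat within MHC1+ EVs and for the interaction. The largest counts came without JinB8 CD63+ replicate 2 for the 13 (3.88%) and without Jurkat MHC1+ replicate 3 for both 15 (30.8% and 25.4%).

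Ranges here are over leaving 1 array out of the 18 or out of the 16. Against beads, MX1 reversed from 1.05 to -0.36 in the 16 and 15 arrays, -0.37 with array weights and -0.34 with the covariate in 16 arrays, with a range of -0.39 to 1.77. MX2 reversed to -0.45, -0.42, -0.39 and -0.38 in these and to -0.0215 with the covariate in 18 arrays, with a range of -0.49 to 1.98. Against untreated cells MX1 reversed to -0.40, -0.41, -0.37 and -0.39, and to -0.35 with the covariate in 18 arrays, with a range of -0.45 to 1.34. MX2 reversed to -0.67, -0.63, -0.51 and -0.63, and to -0.64, with a range of -0.82 to 1.36. HERC6 reversed to 0.0859 for CD63+ against MHC1+ EVs of JinB8 with the covariate, and ISG15 to 0.11 for beads against untreated cells with a second quantile normalization, with a range of -1.03 to 0.51. The cause was not tested beyond the arrays left out. No paired analysis was possible because the labels carry no replicate numbers, and those used here follow the order of the sample records. The fit of the groups compared alone gives no value for any difference among the 6 groups. With 3 arrays per group, 2 in the controls of the 16 arrays, small differences cannot be resolved.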
